A study of Homo sapiens with 4 samples.

Results

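The genes described here are 36 genes of mitochondrial and peroxisomal fatty acid oxidation. They were chosen by name as enzymes, carriers and regulators of the pathway, and were found among the 58288 genes of the RNA-seq tables. All 36 names were matched, and gave the same values as their Ensembl identifiers. The samples were HK2 cells, an established human line derived from kidney proximal tubule, exposed to 50 μM FG-4592 (roxadustat). This compound blocks prolyl hydroxylases, the enzymes through which HIFα subunits are broken down when oxygen is present. There were 2 RNA-seq libraries and 2 lists of HIF1α ChIP-seq peaks, all from treated cells. Untreated cells were not used here, so levels and positions are those under FG-4592, and no change with treatment was computed. The labels do not say whether replicates came from separate cultures, so the spread between them may be technical.

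Fatty acids are activated to acyl-CoA, carried into mitochondria as acylcarnitines and shortened in rounds of dehydrogenation, hydration, a further dehydrogenation and thiolysis, with electrons passed to the respiratory chain through the electron transfer flavoprotein. Peroxisomes shorten very long and branched chains with their own enzymes. Proximal tubule cells of the kidney are known to draw much of their energy from this pathway, and PPARα with its coactivator PGC-1α is known to control many of its genes.

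Expression was given as FPKM, a unit corrected for the length of the transcript and the size of the library, with all transcripts of a gene added up. As a measure of depth, coverage times transcript length was 4442 Mb in the first library and 4202 Mb in the other. The tables hold no read counts, so no counting interval was given, and the precision of a level was judged from the 2 libraries. In these bulk libraries, fewer cells that express a gene and less RNA per cell could not be told apart.

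The label of the cells was compared with marker genes. Of 15 proximal tubule markers, 5 were detected (FPKM of at least 1 in both libraries), with summed levels of 245.8 and 234.9. PAX8 was the most abundant of them, at 120.8 and 114.1, followed by GGT1 at 62.3 and 58.5. SLC4A4 was at 11.9 and 12.7 and SLC5A2 at 2.59 and 1.70. LRP2, HNF4A, SLC22A6 and SLC22A8 were listed at 0 in both libraries, and CUBN, SLC34A1, SLC5A1, AQP1 and ANPEP stayed below 0.1. Thus the endocytic receptors, the organic anion transporters and HNF4A, which define the differentiated proximal tubule, were at or near 0, while PAX8, a renal transcription factor, was present. Of 6 epithelial markers 5 were detected, all but CDH1 (0.211 and 0.379), with summed levels of 489.5 and 467.0 and KRT19 highest at 184.1 and 176.7. EPCAM was at 39.0 and 45.5, KRT7 at 52.4 and 34.4, KRT8 at 166.4 and 161.9, and KRT18 at 47.5 and 48.0. Of 6 mesenchymal markers 3 were detected, VIM at 1294 and 801.8, CDH2 at 63.8 and 63.7 and COL1A1 at 38.7 and 38.7, while COL3A1, PDGFRB and ACTA2 were below 0.6. The summed mesenchymal levels were 1398 and 905.8. Of 4 endothelial and immune markers only CD68, a lysosomal protein, was detected, at 33.6 and 31.5, PECAM1 and PTPRC were listed at 0, and CDH5 was at 0.0131 and 0. The sums of that list were 33.6 and 31.5. The part of these marker levels in the results that follow was not tested.

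Of the 36 fatty acid oxidation genes, 33 were detected, against 58.9% of 19645 protein-coding genes. The 3 others were CPT1C, ACADL and ACOX2. ACADL was listed at 0 in both libraries, CPT1C at 0.0184 and 0, and ACOX2 at 0.0789 and 0. The median level over all 36 was 12.2 in replicate 1 and 12.4 in replicate 2. Over the detected members the median of the mean FPKM was 13.4, beside 11.03 over all 11567 detected protein-coding genes, and 19 of the 33 lay above that value. The detected members ran from 2.74 ± 0.193 (SD, n = 2) for PPARGC1A to 176.0 ± 4.71 for ACADVL. ACADVL and ECHS1 were the 2 members above 100 in both libraries, and together they held 34.4% and 34.0% of the summed member FPKM. When the 33 were ordered by mean, 16 of the 32 neighbouring pairs had libraries that overlapped, so those neighbours were not separated by more than their replicates.

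**Figure D1:**
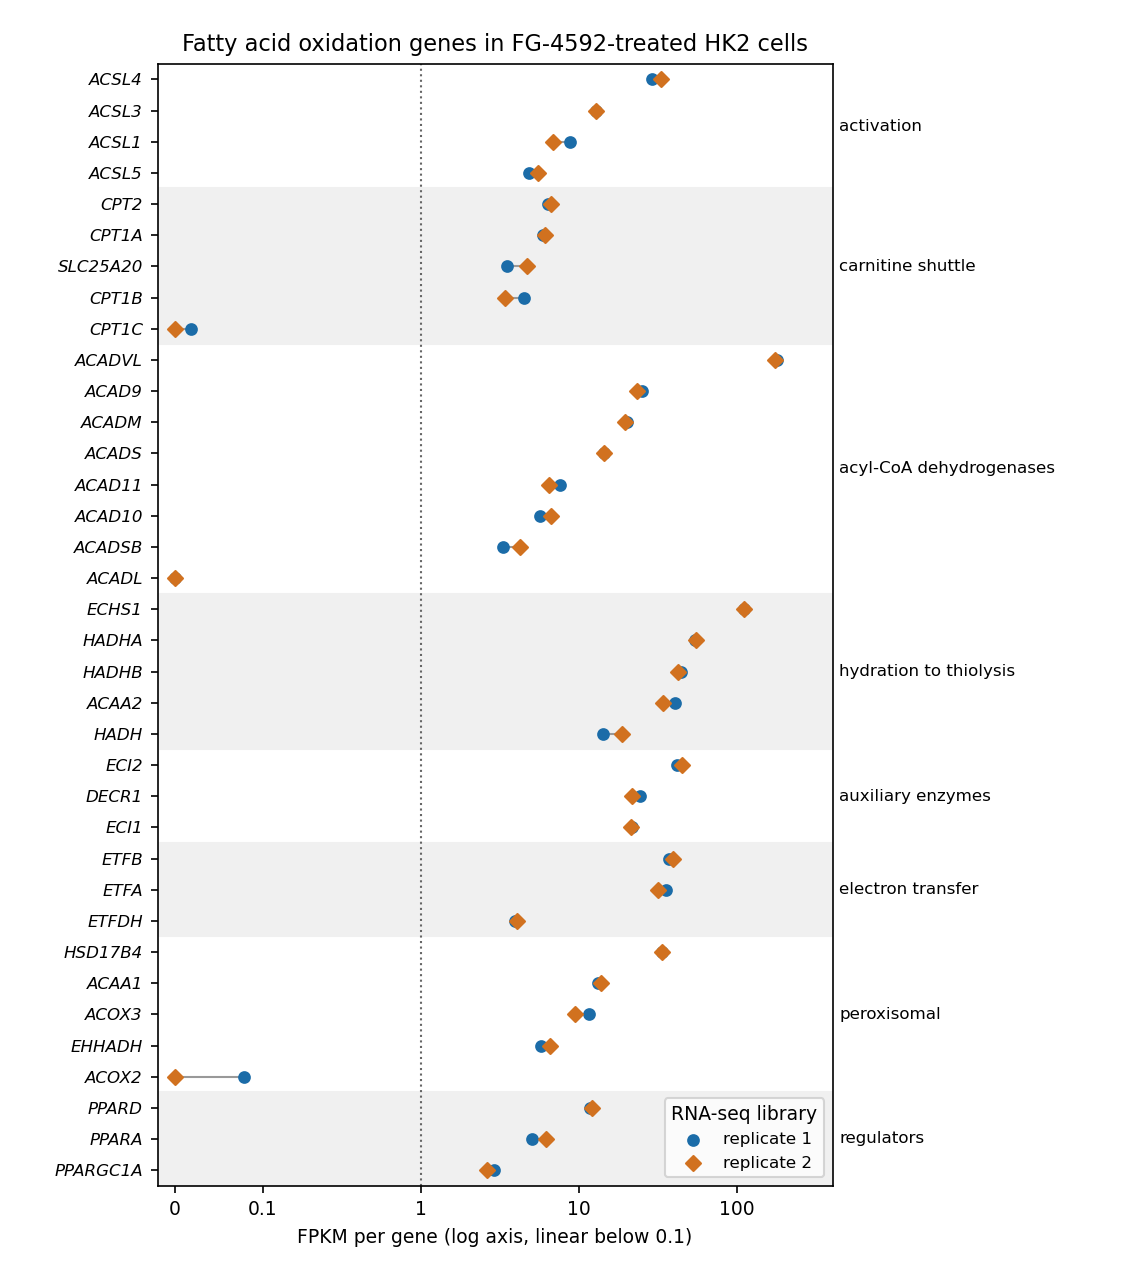
Level of each of the 36 genes, grouped by role, as FPKM on an axis that is logarithmic above 0.1 and linear below. Circles are RNA-seq replicate 1, diamonds replicate 2, a grey line joins them, and CPT1C, ACADL and ACOX2 lie below the dotted line at FPKM 1, the level for detection.

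Activation of long-chain fatty acids to acyl-CoA is carried out by the ACSL enzymes, and all 4 listed were detected. ACSL4, which prefers arachidonate, was highest at 28.8 in replicate 1 and 32.8 in replicate 2. It held 52.2% and 56.7% of the FPKM of the 4 genes. ACSL3, an enzyme of the endoplasmic reticulum and lipid droplets, followed at 12.7 and 12.8. ACSL1 was at 8.76 and 6.80 and ACSL5 at 4.82 and 5.52. The order ACSL4, ACSL3, ACSL1, ACSL5 was the same in both libraries, and no neighbouring pair overlapped.

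The carnitine shuttle stood low. Its 5 genes summed to 20.1 and 20.8, and its detected members had median levels of 5.17 and 5.40, below the 10.9 and 11.0 of all detected protein-coding genes. CPT1A, the liver-type carnitine palmitoyltransferase of the outer membrane and the main control point of the pathway, was at 5.86 and 6.12. CPT1B, the muscle type, was at 4.47 and 3.37, so the ratio of CPT1A to CPT1B was 1.31 and 1.81. The CPT1B exons share 2722 bases with the read-through gene CHKB-CPT1B on the same strand (1.60 and 1.67), and StringTie could divide reads between them. CPT2, the inner membrane enzyme, was at 6.32 and 6.59. SLC25A20, the carnitine-acylcarnitine carrier, was at 3.47 and 4.69, and overlapped CPT1B. CPT1C, a form of the brain, was the gene of this step that was not detected.

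The acyl-CoA dehydrogenases, which open each round and differ in the chain length they take, covered the widest range. ACADVL, the very-long-chain enzyme (ENSG00000072778, chr17:7120444-7128585 on GRCh37, plus strand), was at 179.3 and 172.6, rank 244 among the detected protein-coding genes. ACADM, the medium-chain enzyme (ENSG00000117054, chr1:76190116-76253260, plus strand), was at 20.1 and 19.5, and ACADS, the short-chain enzyme, at 14.4 and 14.3. The level of ACADVL was thus 8.90 and 8.87 times that of ACADM. ACADL, the long-chain enzyme, was listed at 0 in both libraries. ACAD9, which acts mainly in the assembly of respiratory complex I, was at 25.1 and 23.3. ACADSB, which takes short branched chains, was at 3.28 and 4.21, the lowest of the detected dehydrogenases. ACAD10 (5.65 and 6.63) and ACAD11 (7.53 and 6.48) overlapped each other.

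The enzymes from hydration to thiolysis had the highest median of the 8 roles, 44.1 and 42.4. ECHS1, the short-chain enoyl-CoA hydratase (ENSG00000127884, chr10:135175989-135186858, minus strand), was at 110.1 and 109.7. HADHA and HADHB, the subunits of the mitochondrial trifunctional protein, were at 54.4 and 54.4 and at 44.1 and 42.4. Their ratio was 1.23 and 1.28, and their libraries did not overlap. The genes lie back to back, with their main starts 307 bases apart. ACAA2, a thiolase, was at 40.1 and 33.8. HADH, the dehydrogenase for medium and short 3-hydroxyacyl-CoA, was the lowest of the 5 at 14.2 and 18.6.

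Among the auxiliary enzymes for unsaturated chains, ECI2 (41.6 and 44.4) stood above DECR1 (24.2 and 21.6) and ECI1 (21.4 and 21.3). ECI1 and ECI2 are enoyl-CoA isomerases and DECR1 is a dienoyl-CoA reductase. The electron transfer flavoprotein subunits were at like levels, ETFA at 35.5 and 31.5 and ETFB at 37.0 and 39.3, with ratios of ETFB to ETFA of 1.04 and 1.25. ETFDH, which hands their electrons to ubiquinone, was far lower at 3.90 and 4.05, and ETFA stood at 9.09 and 7.78 times its level. The ETFDH exons share 1427 bases with PPID on the opposite strand (19.8 and 18.8). Where reads were not assigned by strand, the 2 genes could not be told apart there.

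Of the 5 peroxisomal genes 4 were detected. HSD17B4, the D-bifunctional protein, was highest at 33.6 and 33.4. ACAA1, the peroxisomal thiolase, was at 13.1 and 13.7, ACOX3, an oxidase of branched chains, at 11.5 and 9.42, and EHHADH, the L-bifunctional protein, at 5.72 and 6.50. None of these neighbours overlapped, and the ratio of HSD17B4 to EHHADH was 5.88 and 5.13. ACOX2, a further oxidase of branched chains and bile acid precursors, had 0.0789 in one library and 0 in the other. All 3 regulators were detected, PPARD above the median of detected genes and the others below it. PPARD was at 11.6 and 11.97, PPARA at 5.05 and 6.21, and PPARGC1A, which encodes PGC-1α, at 2.87 and 2.60. PPARD stood at 2.30 and 1.93 times the level of PPARA, and PPARGC1A was the lowest detected member.

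The 2 libraries had the same treatment, so their difference measures only the repeatability of a level. On the scale of log2(FPKM + 1), replicate 2 minus replicate 1, 17 of the 33 detected members were above 0 and 16 below. The median absolute difference was 0.11, beside 0.12 over the detected protein-coding genes and 0.13 over all 13467 genes whose mean FPKM reached 1. No member was more than 2-fold apart, while 0.821% of the detected protein-coding genes and 1.15% of the 13467 genes were. The members furthest apart were HADH (0.37), SLC25A20 (0.35), CPT1B (-0.32) and ACSL1 (-0.32). For 25 of the 33 the difference was at most 0.2.

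**Figure D2:**
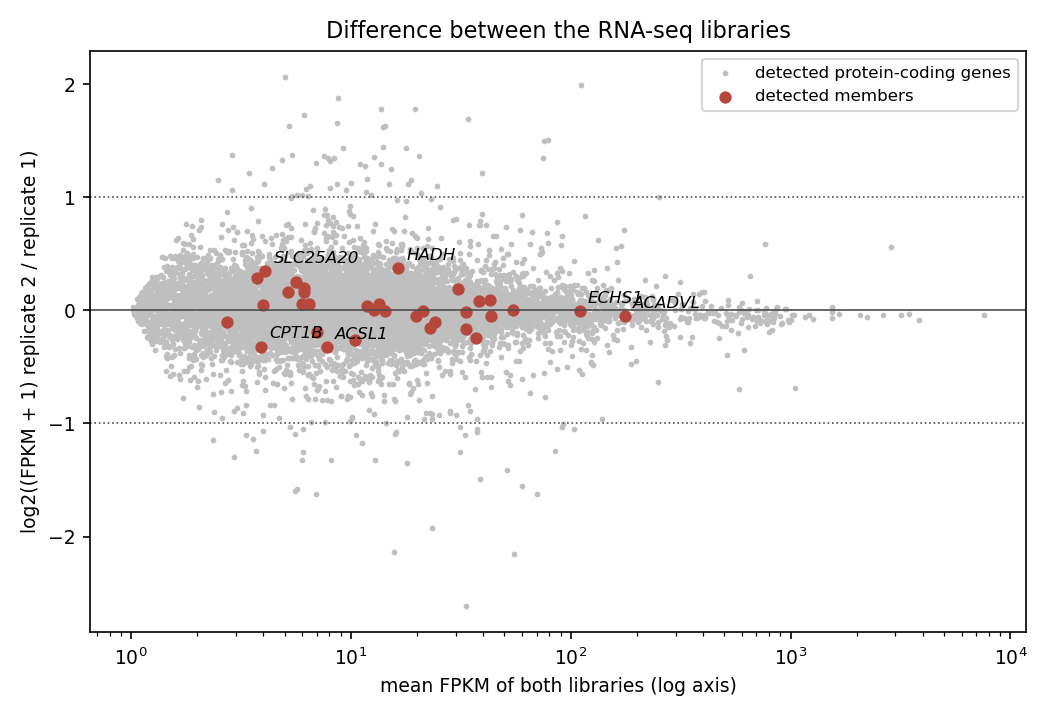
Difference between the RNA-seq libraries, as log2 of FPKM plus 1 in replicate 2 over replicate 1, against the mean FPKM on a log axis. Grey points are the 11567 detected protein-coding genes, red points the 33 detected members, and all red points lie between the dotted lines that mark 2-fold, with HADH highest at 0.37.

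The split of a gene's level among its transcripts also differed between the libraries. Of 125 member transcripts with FPKM of at least 1 in either library, 19 were more than 2-fold apart on the same scale. Their median absolute log2 difference was 0.29. Transcripts could pass through their higher library alone, whereas genes had to reach FPKM 1 in both. The spreads of transcripts and genes are therefore not compared, and no share over the transcripts of all genes is given. For ACADM, a protein-coding transcript was at 0 and 10.1 and a retained-intron transcript at 8.88 and 0.386, while the gene total was 20.1 and 19.5. CPT2 showed the same, with its main transcript at 5.49 and 2.94 and a second one at 0.0978 and 3.37. In 14 of the 33 detected members the largest transcript held over 50% of the FPKM in both libraries, against 56.5% of detected protein-coding genes. With replicate 1 or replicate 2 left out the count was 17, an alternative chosen after seeing the data.

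Protein-coding transcripts, by the types of the GRCh37 annotation, held over 50% of the FPKM in both libraries for 27 of the 33, against 83.4% of detected protein-coding genes. The 4 members under that share in both were ACADVL, HADH, CPT1B and HSD17B4, and ACADM and ACAD11 were under it in replicate 1 alone. In ACADVL, 19.2% and 17.7% of the FPKM fell to protein-coding transcripts and 59.8% and 58.4% to transcripts with a retained intron. Its main protein-coding transcript had 21.9 and 19.8, so most of the ACADVL level lay in transcripts that are not annotated as coding. Counting protein-coding transcripts alone, the ratio of ACADVL to ECHS1 was 0.312 and 0.279 in place of 1.63 and 1.57, and that of ACADVL to HADHA 0.640 and 0.563 in place of 3.30 and 3.17. The ratio of ACADVL to ACADM became 3.65 and 1.77, that of CPT1A to CPT1B 6.13 and 3.98, and that of HSD17B4 to EHHADH 2.71 and 1.04. For ETFB to ETFA it became 1.59 and 1.60, and for PPARD to PPARA 3.67 and 2.50. These ratios thus depended on which transcripts were counted. In HADH, 59.7% and 62.6% fell to transcripts marked for nonsense-mediated decay. For HSD17B4, transcripts with no type in that annotation held 14.97% and 28.8%, so its coding share is a lower bound. CPT1A, PPARD and ECHS1 had 100% in protein-coding transcripts in both libraries.

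**Figure D3:**
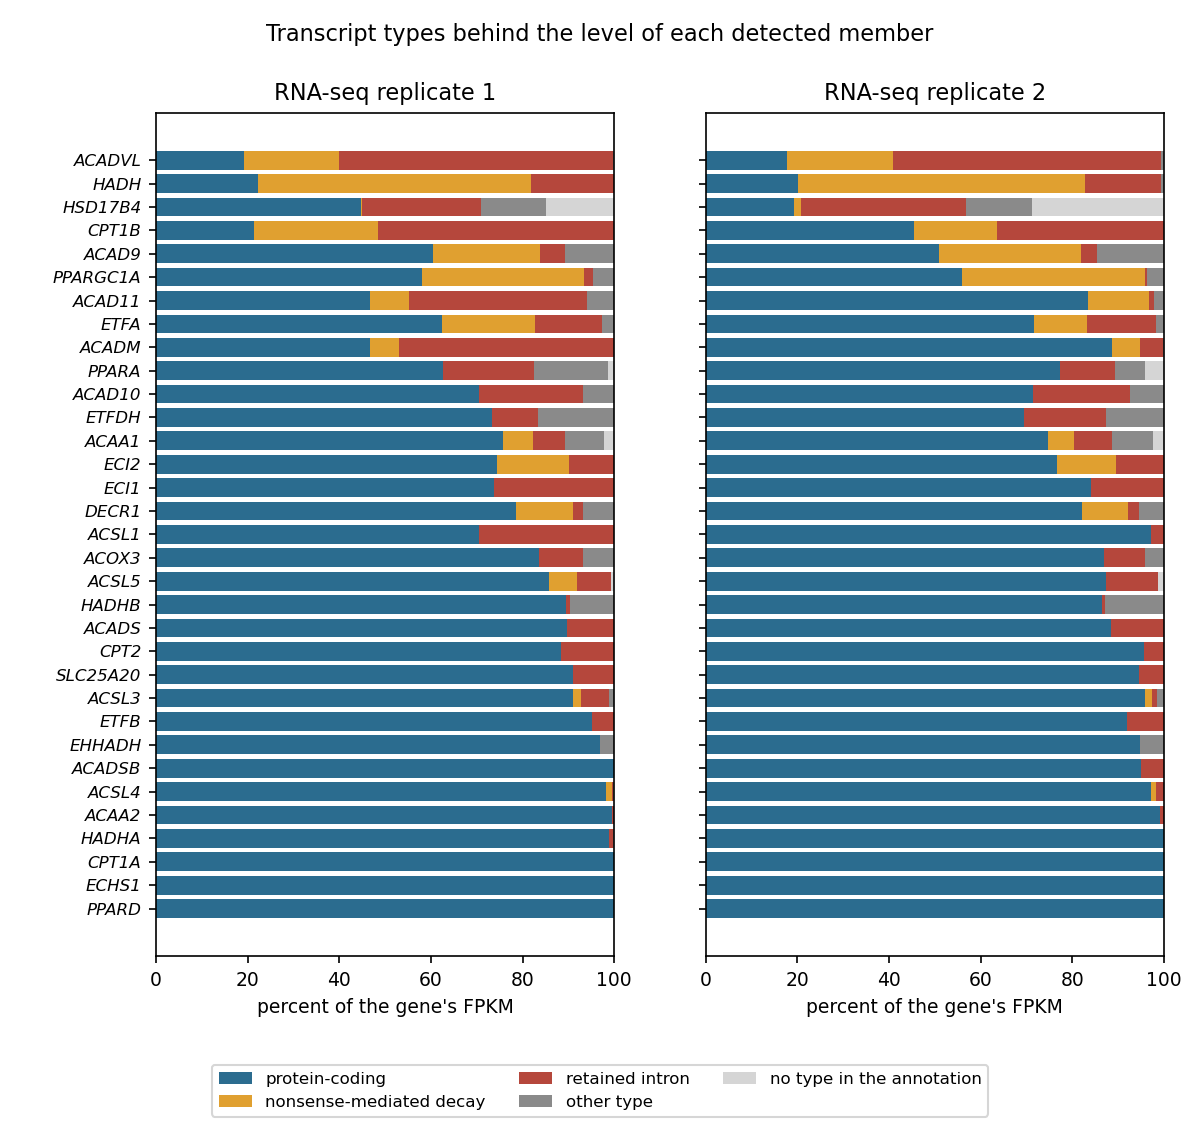
Share of each detected member's FPKM by transcript type, as percent, for RNA-seq replicates 1 and 2. Members are ordered by their protein-coding share added over both libraries, with ACADVL (19.2% and 17.7%) at the top, and pale grey marks transcripts that have no type in the annotation.

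The ChIP-seq shows where the antibody to HIF1α recovered DNA. The lists hold 1689 peaks in replicate 1 and 16953 in replicate 2, as positions on hg19 (GRCh37) with no height or score, so depth is unknown. On chromosomes 1 to 22, X and Y, 19.2% of the replicate 1 peaks overlapped a replicate 2 peak, and 1.84% of the replicate 2 peaks overlapped one of replicate 1. None of the 36 fatty acid oxidation genes had a replicate 1 peak within 1 kb of an annotated start site, against 5.49% of all and 8.68% of detected protein-coding genes. None had a replicate 1 peak anywhere in the gene either, against 8.97% of detected genes, whereas 19 had a replicate 2 peak in the gene, against 53.6%. Within 1 kb, 4 members had a replicate 2 peak (14% of all and 20.2% of detected genes), and 0 had both (1.79% and 2.91%).

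The nearest replicate 1 peak lay at a median of 441.5 kb from a start site of a member, beside 287.3 kb over the detected protein-coding genes. Within 100 kb, 6 of the 36 members had one (16.7%), against 31.0% of detected genes. ECI1 was closest, with a peak at chr16:2282734-2282982 that lay 11457 bp from an ECI1 start site and 25 bp from one of E4F1. For ETFDH the peak at chr4:159644520-159644767 lay 20775 bp away, across a start site of PPID, the gene that runs into ETFDH from the other side. For ACAA1 the distance was 27628 bp, and the peak spanned a start site of OXSR1. Peaks for ACADVL, PPARD and CPT1B lay 82.7, 82.8 and 96.6 kb away. E4F1, PPID and OXSR1 were named after their positions were seen.

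Glycolysis, the pathway that hypoxia-inducible factors are best known to raise, was the comparison list. Of its 20 genes 16 were detected, and 14 had a replicate 1 promoter peak (HK1, HK2, GPI, PFKL, PFKP, ALDOA, TPI1, GAPDH, PGK1, PGAM1, ENO1, ENO2, PKM and LDHA). Of these, 11 also had one in replicate 2. The glycolysis genes had median levels of 152.4 and 139.8, from PKLR, listed at 0, to GAPDH at 7670.2 and 7433. Of 15 genes of fatty acid synthesis all were detected, from ELOVL6 (1.84 and 1.87) to SCD (242.7 and 238.1). SCD, the stearoyl-CoA desaturase, was the one among them with a promoter peak in replicate 1, and it had one in replicate 2 too. No test between the lists was made, and the lists differ in level as well as in peaks.

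**Figure D4:**
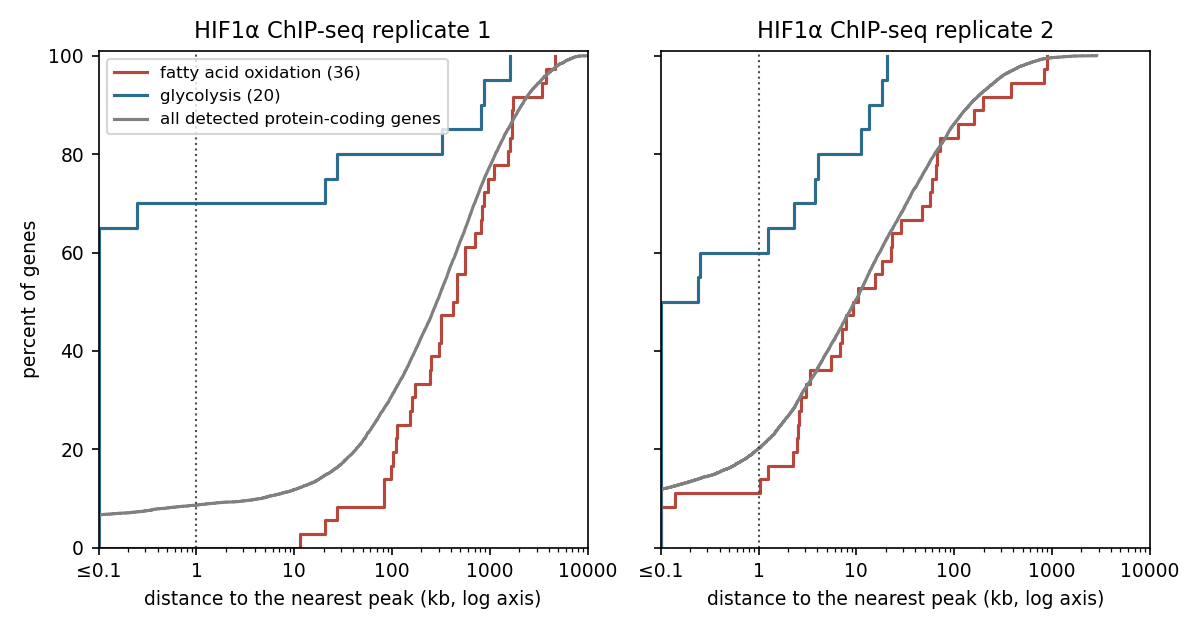
Cumulative percent of genes by distance from a start site to the nearest HIF1α peak, in kb on a log axis, for replicates 1 and 2, with distances up to 0.1 kb at the left edge and a dotted line at 1 kb. Red is the 36 fatty acid oxidation genes, blue the 20 glycolysis genes and grey the 11567 detected protein-coding genes, and in replicate 1 the red line leaves 0 at 11.5 kb and the blue line has reached 70% at 1 kb.

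Replicate 2 gave 28 peaks inside member genes or within 1 kb of their start sites, in 19 genes. Of the 28, 26 lay wholly in annotated exons, with the exons of all genes counted. Of the bases of the 28, 97.5% were exonic, against 85.7% for all replicate 2 peaks and 33.5% for all replicate 1 peaks. The exons were not always those of the member. The ETFA and EHHADH peaks, the ACADVL peak past its end and the ACAD11 peak before its start were centred outside exons of the named gene. The centres of 18 lay in the last exon of the representative (MANE) transcript, and 25 lay past the middle of it. HADHA, HADHB, ECHS1, ACADS, SLC25A20 and HSD17B4 each had a single peak of this kind, and PPARA had 3. A replicate 2 peak in the gene was present in 61.5% of the 13 members with mean FPKM of at least 20 and in 37.5% of the 8 below 5. The same shares were 73.1% and 19.97% over all protein-coding genes, so replicate 2 peaks were more frequent in genes with more RNA. This held for replicate 1 peaks too, at 12.1% and 2.79% over all protein-coding genes. The cause was not tested.

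**Figure D5:**
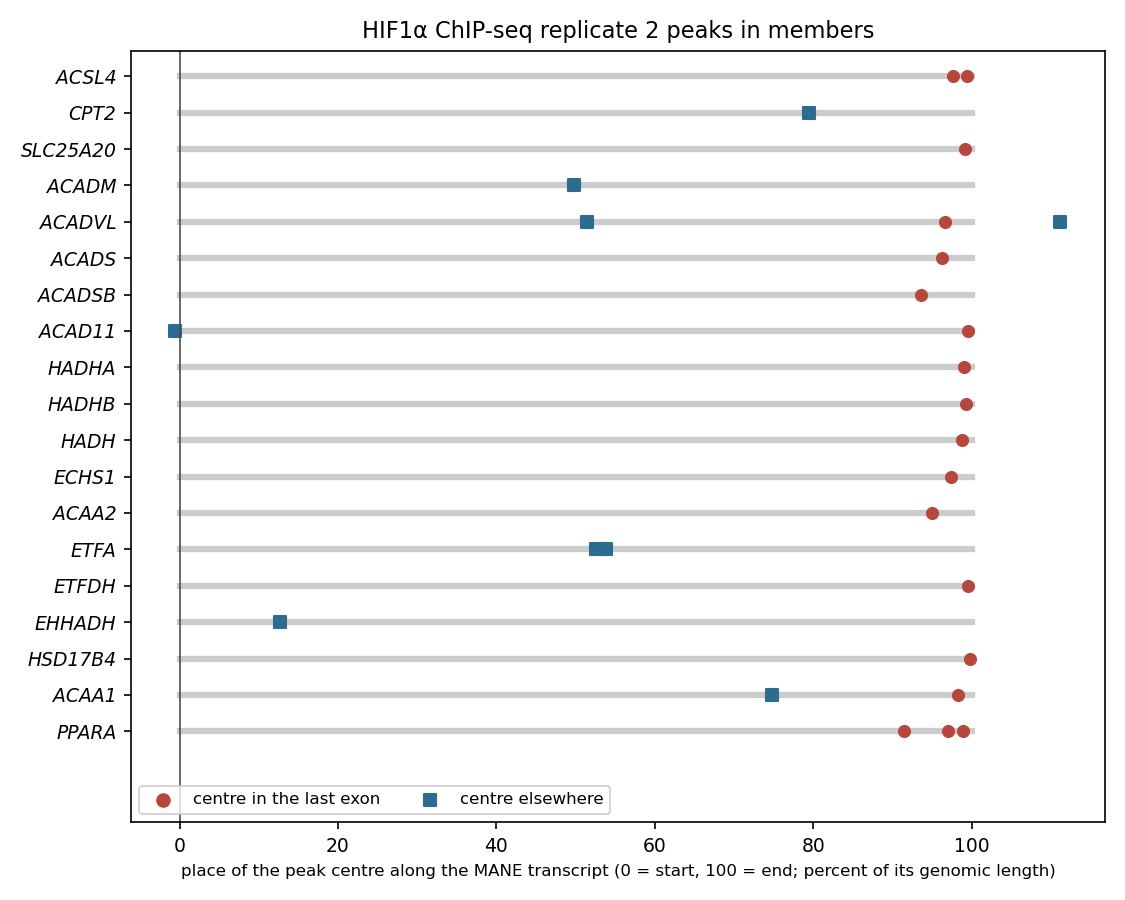
Place of replicate 2 peak centres along the MANE transcript of each member that had one, as percent of its genomic length, with 0 at the start and 100 at the end. Red circles are centres in the last exon (18 of 28 peaks) and blue squares other places, with the ACAD11 centre just before the start.

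The 4 members with a replicate 2 promoter peak were ACADVL, ACADM, ACAD11 and ACAA1, with 7 peaks. Each counted through a start site other than the main one, except in ACAD11. In ACADM the peak at chr1:76209079-76210512 was centred 19401 bp into the gene, in an ACADM exon outside the main transcript. All its bases were exonic when the exons of all genes were counted. ACADM exons share 1354 bases with DLSTP1, a processed pseudogene on the opposite strand, named after these values were seen. Whether the peak lies on the shared bases was not tested. In ACADVL a peak at chr17:7125253-7126738 was centred in exon 10, another at chr17:7128261-7128552 in exon 20, and the last, chr17:7128830-7129536, lay past the end of the main transcript at DVL2, named here after its position was seen. In ACAA1 the peaks were chr3:38164264-38164633, centred in exon 12, and chr3:38167554-38168129. With peaks of 50% or more exonic bases left out, 0 members had a promoter peak in replicate 2. The share over all genes is not given for this rule, so the count is not read as particular to the members.

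The core of the hypoxia response element, read as ACGTG or GCGTG on either strand, was sought within 100 bp of peak centres. It was present in 2 of the 7 member peaks of replicate 2 (28.6%), the share over all replicate 2 peaks being 26.6%. Over all replicate 1 peaks the share was 86.1%, and at the 17 glycolysis promoter peaks of replicate 1 it was 82.4%. At the 23 glycolysis promoter peaks of replicate 2 it was 60.9%. The 2 member peaks with a core were the ACADVL peak centred in exon 10, with 1 core, and an ACAD11 peak, with 3. The ACAD11 peak was chr3:132379067-132379328, and its nearest core, an ACGTG 21 bp from the centre, is not printed. The ACADVL site, in a member peak, is shown first, with the core nearest the centre in capitals and 12 bases on either side, on the plus strand of GRCh37. It is at chr17:7126057-7126085, 76 bp from the peak centre. After it stand sites from replicate 1 promoter peaks of LDHA (chr11:18416025-18416053) and PGK1 (chrX:77359522-77359550), and of PRKAA2 (chr1:57111095-57111123), a pathway gene outside the 36, for comparison. In the PGK1 line a second core falls in the flank.
ACADVL: tgccatcggagaACGTGctgggtgaggtt
LDHA: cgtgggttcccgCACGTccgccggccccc
PGK1: ttgcggttcgcgGCGTGccggACGTGaca
PRKAA2: agatcggacactACGTGctgggcgacacg

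The same core was counted in RefSeq promoters (GRCh38.p14), windows from 250 bases before to 50 bases after a start. Of the 36 members, 29 had an entry, with 43 windows in all. CPT1B, ACAD11, DECR1, ETFDH, ACOX2, EHHADH and ACAA1 are named only. A core was present in 24 of the 43 windows (55.8%), against 48.4% of all 35116 windows and 61.0% of 41 glycolysis windows. ACGTG itself was in 7 member windows, and in 21.4% of all windows. The most cores were in the upstream promoter of PPARGC1A (7) and in that of ACAD9 (5), and 1.98% of all windows had 5 or more. The other PPARGC1A window, which lies within the annotated gene, had 0. ACADM had 1 core, a GCGTG on the opposite strand. A CACGTG was counted on both strands. These promoters are printed for their 250 bases before the start, 5′ to 3′ on the strand of the gene with cores in capitals, 6 of the PPARGC1A cores and 4 of the ACAD9 cores falling in them. ACAD9 and ACADM are shown because they carry the letters while neither ChIP-seq list has a peak within 1 kb of the main start, and PPARGC1A because it has the most cores. The upstream PPARGC1A window lies outside the gene as annotated on GRCh37, and peaks there were not looked for. PPARGC1A is at chr4:24472906-24473155 on the minus strand, ACAD9 at chr3:128879370-128879619 and ACADM at chr1:75724459-75724708 on the plus strand. A match describes the letters only.
PPARGC1A: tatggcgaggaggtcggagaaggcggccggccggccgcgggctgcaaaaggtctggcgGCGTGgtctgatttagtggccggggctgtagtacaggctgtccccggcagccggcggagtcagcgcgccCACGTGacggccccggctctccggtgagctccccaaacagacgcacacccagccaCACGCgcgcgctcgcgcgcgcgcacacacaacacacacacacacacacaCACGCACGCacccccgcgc
ACAD9: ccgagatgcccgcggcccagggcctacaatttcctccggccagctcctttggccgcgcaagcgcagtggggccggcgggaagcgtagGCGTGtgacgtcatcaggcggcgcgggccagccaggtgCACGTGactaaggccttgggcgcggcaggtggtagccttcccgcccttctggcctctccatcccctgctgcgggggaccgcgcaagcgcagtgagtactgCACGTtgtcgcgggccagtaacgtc
ACADM: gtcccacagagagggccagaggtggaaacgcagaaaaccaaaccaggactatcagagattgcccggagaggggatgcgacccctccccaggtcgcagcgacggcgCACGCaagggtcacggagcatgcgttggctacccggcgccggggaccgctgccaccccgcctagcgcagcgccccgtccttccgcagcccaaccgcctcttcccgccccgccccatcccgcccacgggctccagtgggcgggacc

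Of 46 further genes of the pathway 40 were detected, with a median of 7.92 and 9.11 over all 46. Promoter peaks were present for 2 in replicate 1, for 5 in replicate 2 and for none in both. The share in replicate 1 was 4.35%, beside 5.49% of all and 8.68% of detected protein-coding genes. In replicate 2 it was 10.9%, beside 14% and 20.2%. One of the 2 genes with a replicate 1 promoter peak was PRKAA2, a catalytic subunit of AMP-activated kinase. PRKAA2 was at 3.96 and 4.22 and had that peak at chr1:57110886-57111303. Of the genes of ketone body metabolism, ACAT1 was highest at 21.2 and 24.4. In carnitine supply, ALDH9A1 was highest (31.3 and 29.9) and BBOX1, which makes carnitine, was listed at 0.

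Malonyl-CoA, the inhibitor of CPT1, is made by ACACA and ACACB and removed by MLYCD. ACACA was the highest of these at 25.8 and 18.8 and MLYCD the lowest at 1.91 and 1.79. ACACB, chosen after its values were seen, was at 6.31 and 7.76 and had a replicate 1 peak 1658 bp from its nearest start site, inside the gene and outside exons. Among the acyl-CoA thioesterases ACOT7 was highest by the mean (32.9 and 25.5) and ACOT4 lowest (0.0230 and 0). In replicate 2 ACOT9, chosen after its values were seen, was above ACOT7, at 25.7. Among other peroxisomal genes ABCD3 was highest (22.7 and 22.9) and ABCD2 was listed at 0. Of the other regulators PPRC1 was highest by the mean (22.4 and 22.7), though other genes of that list were above it in each library, and PPARGC1B was lowest (0.241 and 0.424). In flavin supply and modification of the electron transfer flavoprotein, SLC25A32, the mitochondrial folate and flavin carrier, was highest (13.2 and 17.7) and ETFBKMT lowest (0.109 and 0.201).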

How the data were processed

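The authors aligned ChIP-seq reads to hg19 with Bowtie2 and called peaks with MACS2, 1 list per replicate, and the deposited lists give positions only. The MACS2 version, threshold and control are not given in the sources used here. They mapped RNA-seq reads with HISAT2, and per the file headers StringTie 1.3.3 estimated coverage, FPKM and TPM on GENCODE 27. The study's methods name hg19 for the RNA-seq too, but the coordinates in the deposited tables follow GRCh38, since 1 of the 36 genes starts within 1 kb of its GRCh37 start, so genes were joined by name and Ensembl identifier and never by converting positions. No peak passed the end of a GRCh37 chromosome. Peaks on other sequences, 28 and 305, were left out.

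FPKM was summed per gene. A promoter peak overlapped by at least 1 bp the window 1 kb either side of any start site in GENCODE 44 on GRCh37. Genes compared were the 19645 protein-coding genes found in both annotations. Of 443 member transcripts, 432 had a type there. No two-group test was possible with 1 treatment. Alternatives covered unit, threshold, transcripts, pseudocount, scaling, window, start sites, overlap, motif window and each replicate left out. All members could be named, and of other lists the highest, the lowest and those with a replicate 1 promoter peak, with all markers. Members and lists were chosen with earlier results of these data known. The peak and motif code was tested on simulated data. Sequences were read with samtools 1.23.1 and pysam 0.24.0 under Python 3.11.15, tables handled in pandas 2.3.3 and numpy 2.4.6, and plots drawn by matplotlib 3.10.9. Protein-coding transcripts alone, and each replicate left out for transcript use and the motif, were added after seeing the data.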

Additional observations from a re-analysis of the deposited data

How the results depend on the processing

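The count of 33 detected members stayed between 27 and 33 under TPM, the largest transcript alone, other thresholds, either library left out, and protein-coding transcripts alone, with 27 at FPKM of at least 5. The median level of members (12.3) went to 6.12 with the largest single transcript, to 9.48 with protein-coding transcripts alone, chosen after seeing the data, and to 34.0 in TPM, which is another unit. It was 12.2 to 12.4 with a library left out. The median difference between libraries, 0.11, was 0.10 to 0.11 under other pseudocounts, TPM and scaling. It needs both libraries, so none was left out. The members whose largest transcript held over 50% numbered 14, and 17 with either library left out. No alternative run gave a replicate 1 promoter peak at a member. The replicate 2 count of 4 became 11 at 3 kb and 18 at 10 kb (50% of members, beside 50.5% of detected protein-coding genes). It became 2 with start sites of protein-coding transcripts, 1 with the most 5' start site, and 0 with peaks under 50% exonic. Apart from 10 kb, these alternatives stand without the share over all genes, so their counts are not read as particular to the members. With a ChIP-seq replicate left out, the count for both (0) ranged from 0 to 4. Member promoter peaks with a core, 2 in all, were 1 within 50 bp of the centre, 3 over the whole peak and 0 to 2 with a replicate left out. Except where a narrower rule or fewer peaks account for it, the cause was not tested. No paired analysis was possible because all libraries had 1 treatment. With 2 libraries and no read counts, each SD is imprecise.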
